A study of Mus musculus with 4 samples.

Results

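The phospholipase A2 family was followed through the adipose tissue (AT) immune cells of mice fed a high-fat diet (HFD) or a normal fat diet (ND). The members were the 8 genes listed under the names Pla2g2d, Pla2g4a, Pla2g5, Pla2g6, Pla2g7, Pla2g12a, Pla2g15 and Pla2g16, of 35869 genes in all. Their rows were taken by gene name. RNA-seq was performed on CD45+ cells isolated with microbeads from the stromal vascular fraction of the epididymal white AT (eWAT) of male wild-type C57BL/6 mice. CD45 marks the surface of leukocytes, and the eWAT is the fat pad beside the epididymis. The animals were fed ND as the control or HFD for 12 weeks from 8 weeks of age, and the sources give no other treatment or genetic change. Each diet was represented by 2 libraries, called replicates here. The number of mice behind a library is not given in the sources used here, so the p-values measure the spread between these samples, which may be partly technical.

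Phospholipase A2 enzymes cut a fatty acid, often arachidonic acid, from the middle position of a membrane phospholipid and leave a lysophospholipid. Arachidonic acid feeds the cyclooxygenase and lipoxygenase routes to prostaglandins and leukotrienes, while lysophospholipids are taken up again into membranes, degraded or bound by receptors. In AT the family touches both the fat cell, where it bears on lipolysis, and the macrophage, which takes up and degrades the lipids of dying adipocytes. The members fall into 3 places of action. Pla2g2d, Pla2g5, Pla2g12a and Pla2g7 encode secreted enzymes, Pla2g4a, Pla2g6 and Pla2g16 encode enzymes of the cytosol and its membranes, and Pla2g15 encodes the phospholipase A2 of the lysosome.

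The members do not share a single catalytic design, and their coding sequences around the catalytic residue show how far the group reaches. The stretches below were read from the GENCODE vM21 transcripts, 5′ to 3′, with the codon of the catalytic residue in capitals. In Pla2g2d, Pla2g5 and Pla2g12a that residue is a histidine that follows a pair of cysteine codons, at codon 66 of 144 in Pla2g2d, codon 67 of 137 in Pla2g5 and codon 113 of 192 in Pla2g12a. In Pla2g7, Pla2g15 and Pla2g6 it is a serine, at codon 272 of 440, codon 198 of 412 and codon 520 of 807.
Pla2g2d: tgctgtcagaagCATgattgttgc
Pla2g5: tgctgtcagatgCACgaccgttgt
Pla2g12a: tgctgcaaccagCACgacagatgc
Pla2g7: ggacatTCTtttgga
Pla2g15: gcccacAGCatgggc
Pla2g6: ggaaccAGCacaggg

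Pla2g2d and Pla2g5 lie in a cluster of 6 secreted phospholipase A2 genes on chromosome 4, chr4:138724792-138882817 in GRCm38, which spans 158 kb. The other members are spread over the genome. The longest exact run that any member's transcripts shared with those of its relatives was 27 bases, between Pla2g4a and Pla2g12a, and it was 21 bases for Pla2g2d.

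The values are TPM, read counts divided by gene length and scaled to the same total in every sample, so levels of different genes can be set side by side within a sample. Read steps in the values of short microRNA genes gave approximate depths of 37500000 and 44400000 counted reads in ND and of 46800000 and 41000000 in HFD. The leukocyte gene Ptprc, which encodes CD45, lay between 53.7 and 59.4 TPM in all 4 samples. The summed macrophage markers were high in all 4 samples, between 17505 and 21176 TPM. The libraries also held RNA of other cells. The summed level of 8 fibroblast markers was 613 and 657 TPM in ND, as compared to 3057 and 6118 TPM in HFD, and 6 spermatid markers reached 6577 TPM in HFD replicate 1 as compared to 1757 to 2023 TPM in the others. HFD replicate 1 thus stood apart from HFD replicate 2, and results that rest on it are given with and without it.

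Of the 8 members, 7 passed the filter of at least 1 TPM in at least 2 samples. Pla2g2d and Pla2g16 fell with HFD, Pla2g15 rose, and Pla2g7, Pla2g4a, Pla2g12a and Pla2g6 were not called. Calls required an adjusted p-value under 0.05 in limma, with Benjamini-Hochberg adjustment over all 16849 genes tested, and a change of at least 1.5-fold on the scale of TPM + 1. The diet contrast was broad. The share of all tested genes called was 18.4%, with 8.08% higher and 10.3% lower, against which stand 3 of 7 tested members, 1 higher and 2 lower. The median log2 fold change was 0.23 over the 7 members tested and 0.06 over all tested genes, and the median size of the change regardless of sign was 0.36 and 0.32. Non-overlap of the diets was common, since 66.9% of all tested genes had both HFD values on the same side of both ND values. With 2 samples against 2, an exact two-sided permutation test of a single gene cannot go below a p of 0.33.

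**Figure D1:**
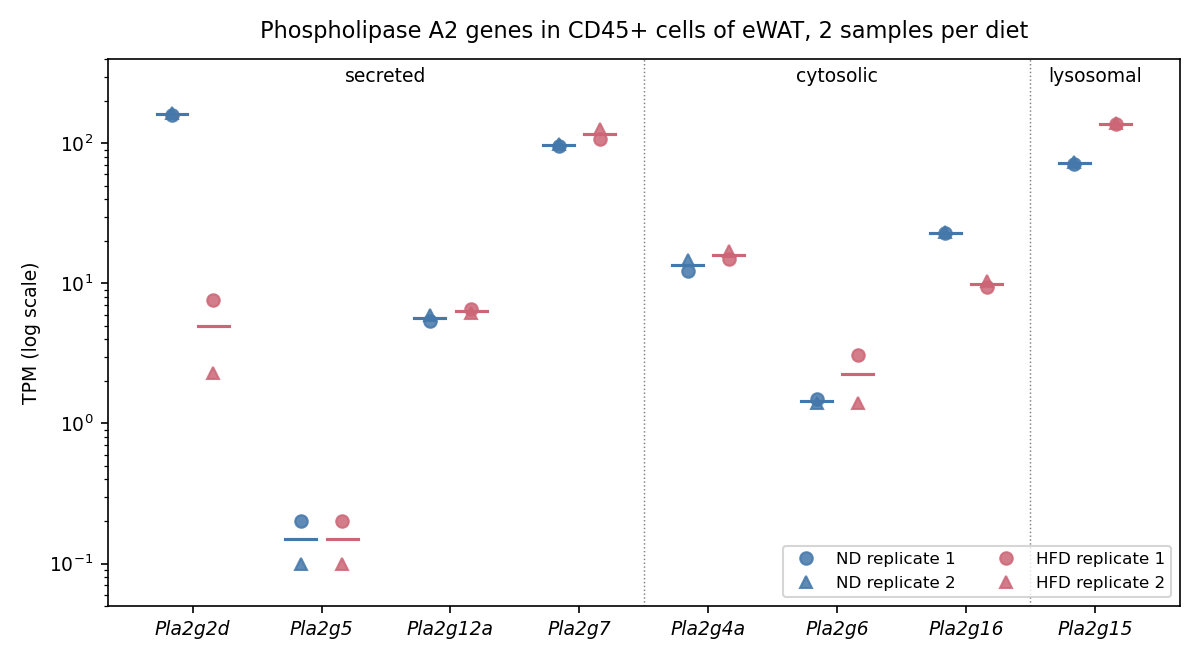
TPM (log axis) of the 8 members in every sample, with circles for replicate 1, triangles for replicate 2 and bars for the mean of each diet. Pla2g2d drops from 163 to 4.95 TPM, Pla2g16 from 23.1 to 9.95 TPM, and Pla2g15 climbs from 72.5 to 138 TPM, while the other 5 members differ less between the diets.

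Among the secreted members, Pla2g2d carried the change. Pla2g2d encodes a secreted enzyme known from dendritic cells and macrophages of lymphoid organs, where it has been linked to the restraint of inflammation. It was measured at 160 and 166 TPM in ND replicates 1 and 2, and at 7.6 and 2.3 TPM in HFD replicates 1 and 2. Both HFD values lay far below both ND values, and relative to their level the HFD replicates differed from each other more than the ND replicates did. The mean fell by 97.0%, from 163 ± 4.03 to 4.95 ± 3.75 TPM (SD, n = 2 per diet), with a log2 fold change of -4.94 ± 0.53 (SE, limma adjusted p = 0.0153) and a 95% interval of -6.54 to -3.35. With a block for the replicate number the limma adjusted p was 0.0520, and Pla2g2d was not called. In bulk RNA, fewer cells that express a gene and less RNA of it per cell cannot be told apart.

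In the order of all genes by TPM, Pla2g2d stood at rank 972 and 965 in the ND samples and at rank 9434 and 12772 in the HFD samples. Approximately 5106 and 6126 reads stood behind the ND values, and 276 and 72.6 behind the HFD values, so the low HFD values were still well above single reads. The log2 difference between HFD replicates 1 and 2 was 1.38 for Pla2g2d, as compared to -0.01 for Pla2g15 and -0.12 for Pla2g16. Leaving out HFD replicate 1 moved the change to -5.63 and leaving out HFD replicate 2 moved it to -4.25, and it was called in both cases. Leaving out ND replicate 1 or ND replicate 2 gave log2 fold changes of -4.97 and -4.92 with adjusted p = 0.201 and 0.189. In those 2 fits limma called 0 of 16128 and 0 of 16086 genes, though 3471 and 3686 had an unadjusted p under 0.05, 3 members among them in each.

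Pla2g2d lies at chr4:138775735-138782046 on the plus strand (GENCODE vM21, GRCm38) and has 5 exon blocks with 2243 bases. The noncoding RNA gene Gm32871 overlaps it on the opposite strand, at 4.3 and 4.4 TPM in ND and listed at 0 in both HFD samples. The strand setting of the counting is not given in the sources used here. The part of Gm32871 reads in the values of Pla2g2d was not tested. The 3 tested genes with profiles most like that of Pla2g2d, by the Euclidean distance between centred log2(TPM + 1) values over the 4 samples, were Mmp9 at 0.861, Cfd at 1.05 and Ccl26 at 1.15. Mmp9, which encodes a matrix metalloproteinase, was at 191 TPM in both ND samples and at 5.3 and 4.6 TPM in HFD.

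Markers of several cell types moved in the same direction as Pla2g2d. The sums of monocyte, neutrophil, eosinophil and mast cell markers in HFD were 0.427, 0.356, 0.519 and 0.278 of their ND means. Those of lipid-associated macrophage, fibroblast, endothelial and spermatid markers were higher in HFD. Of 8 dendritic cell markers, 3 were called lower (Cd209a, Ccl22 and Zbtb46) and 5 were not called. Their sum was 650 and 676 TPM in ND, as compared to 226 and 293 TPM in HFD, and most of the difference lay in Cd209a, at 367 and 393 TPM in ND and at 65.0 and 58.0 TPM in HFD, and in Ccl22. The other 6 dendritic markers summed to 148 and 143 TPM in ND, and to 110 and 161 TPM in HFD. The diets overlapped in this sum through Fscn1, at 79.0 and 72.5 TPM in ND and at 78.7 and 102.8 TPM in HFD, while 7 of the 8 markers had both HFD values below both ND values, as did 32.8% of all tested genes. All 8 markers of resident macrophages were called lower, and their sum was 4940 and 5057 TPM in ND, as compared to 1586 and 1245 TPM in HFD. All 6 T cell markers were called lower, and so were the 5 B cell markers, of which Pax5 passed the filter through its ND values alone. Either list summed to between 114 and 147 TPM in ND and between 17.0 and 31.8 TPM in HFD. Pla2g2d stood further below its ND mean than any of these sums, at a log2 ratio of -4.42 and -6.14 in the HFD replicates as compared to -3.06 and -2.16 for T cell markers. The part of these cell types in the result for Pla2g2d was not tested.

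**Figure D2:**
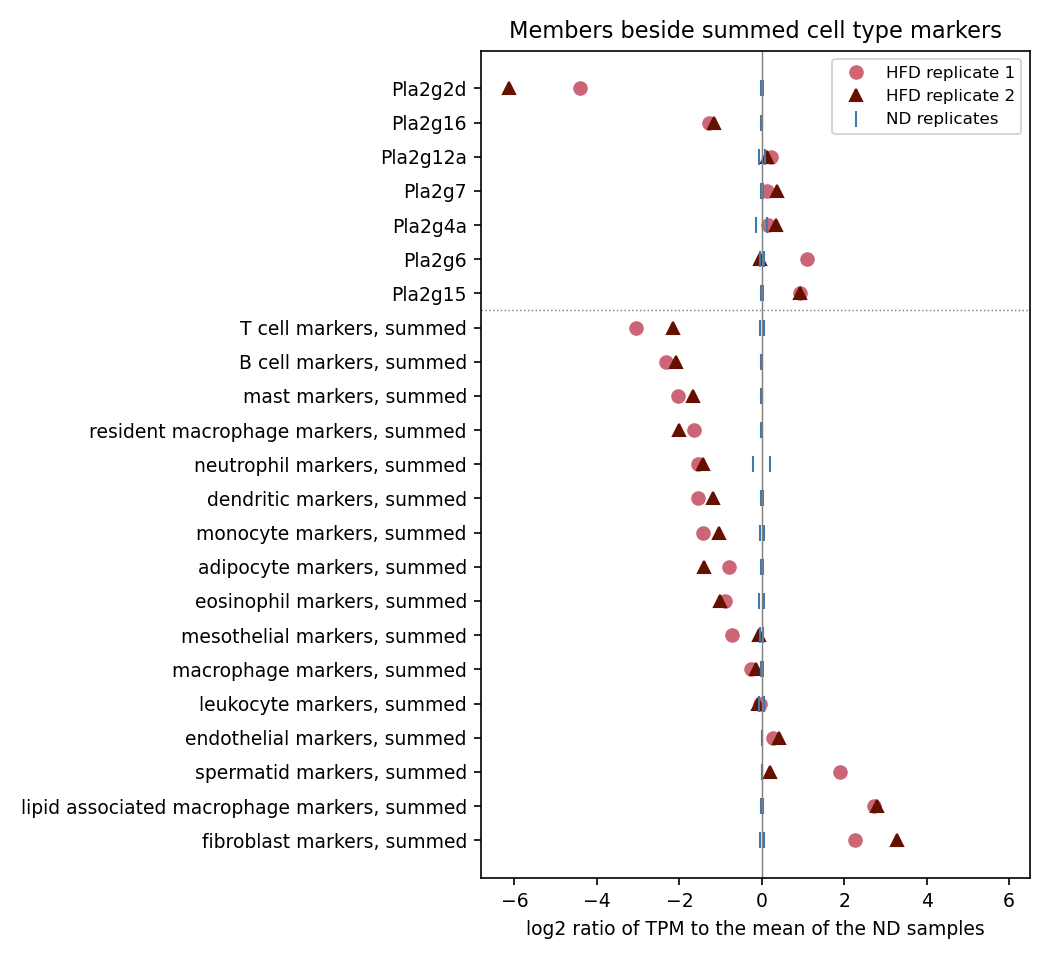
Log2 ratio of TPM to the mean of the ND samples for 7 members and for the sums of 16 marker lists, with circles and triangles for HFD replicates 1 and 2 and ticks for the ND replicates. Pla2g2d lies left of every marker sum, Pla2g16 lies among the lists that are lower in HFD, and Pla2g6 and the spermatid sum are high in HFD replicate 1 only.

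No other secreted member was called. Pla2g7 encodes the plasma-type platelet-activating factor (PAF) acetylhydrolase, a lipase made by macrophages that inactivates PAF and oxidized phospholipids. It was at 95.8 and 99.6 TPM in ND and at 108 and 127 TPM in HFD. The diets did not overlap, and HFD replicate 2 was the highest. The log2 fold change was 0.26 ± 0.10 (SE, limma adjusted p = 0.161) with a 95% interval of -0.05 to 0.56, and it ranged from 0.14 to 0.38 when single samples were left out. The antisense gene 1700071M16Rik, which shares 319 exon bases with Pla2g7, was listed at 31.7 to 37.4 TPM, and reads of the pair cannot be told apart if strand was not used in counting.

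Pla2g12a, a small secreted enzyme found in many tissues, was at 5.4 and 6.0 TPM in ND and at 6.6 and 6.2 TPM in HFD. Its log2 fold change of 0.14 had a 95% interval of -0.14 to 0.43 (limma adjusted p = 0.352), and it ranged from 0.080 without ND replicate 1 to 0.21 without ND replicate 2. Pla2g5, a secreted enzyme of the chromosome 4 cluster, was listed at 0.2 TPM in replicate 1 and 0.1 TPM in replicate 2 of either diet. With about 4 to 9 reads per sample it stayed below the filter and was not tested, and no difference could be detected at this depth.

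The lysosomal member rose. Pla2g15 encodes the acid phospholipase A2 of lysosomes, an enzyme known from alveolar macrophages, which degrade surfactant phospholipids with it. It was at 71.1 and 73.8 TPM in ND and at 138 and 139 TPM in HFD. Both HFD values lay above both ND values, and the replicates of each diet nearly coincided. The mean rose from 72.5 ± 1.91 to 138 ± 0.707 TPM (SD, n = 2 per diet), a log2 fold change of 0.92 ± 0.04 (SE, limma adjusted p = 0.00536, 95% interval 0.79 to 1.05). Pla2g15 moved from rank 2118 and 2112 in ND to rank 1266 and 1248 in HFD. Leaving out HFD replicate 1 gave 0.93 and leaving out HFD replicate 2 gave 0.92, and it stayed under a 2-fold limit. With ND replicate 1 or 2 left out it was 0.90 and 0.95, with adjusted p = 0.176 and 0.168.

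All 13 markers of lipid-associated macrophages were called higher, and their sum was 1723 and 1779 TPM in ND, as compared to 11643 and 12131 TPM in HFD, while the sum of 10 general macrophage markers was 0.872 of its ND level. Of those 10, Adgre1 and Cd68 were called higher, C1qa was called lower and 7 were not called. The median log2 fold change of the list was -0.24, and 6 of the 10 had both HFD values below both ND values while 2 had both above. The part of macrophages, lipid-associated or other, in the rise of Pla2g15 was not tested. Of the 3 lysosomal or related genes examined beside it, Plbd1, which encodes a phospholipase B-like protein, fell, with 318 and 325 TPM in ND as compared to 107 and 134 TPM in HFD (log2 fold change -1.42 ± 0.13, limma adjusted p = 0.0119). Plbd2, its lysosomal relative, was at 134 and 136 TPM in ND and at 184 and 182 TPM in HFD, a log2 fold change of 0.44 that was under the fold limit (limma adjusted p = 0.0105). Lcat, the plasma enzyme closest in kind to Pla2g15, had a log2 fold change of 0.63 and was not called (limma adjusted p = 0.119).

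Of the 3 cytosolic members, Pla2g16 fell and the other 2 were not called. Pla2g16, named Plaat3 in RefSeq, encodes a membrane-bound phospholipase best known from adipocytes, where its loss raises lipolysis. It was at 22.9 and 23.2 TPM in ND and at 9.5 and 10.4 TPM in HFD. The diets were far apart as compared to the differences between replicates. The mean fell by 56.8%, with a log2 fold change of -1.14 ± 0.08 (SE, limma adjusted p = 0.00775, 95% interval -1.36 to -0.91). A block for the replicate number gave a limma adjusted p of 0.0520, and Pla2g16 was not called. The further fits had no block. With HFD replicate 1 left out it was -1.08 and with HFD replicate 2 left out -1.20, both called. With ND replicate 1 or 2 left out it was -1.15 and -1.13, with adjusted p = 0.176 and 0.169.

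Adipocyte RNA was present in the CD45+ fraction. Adipoq, which encodes adiponectin, was at 12.4 and 11.3 TPM in ND and at 8.6 and 4.2 TPM in HFD. Of 8 adipocyte markers, Lep was called higher and 4 were not called. Cfd, Retn and Pck1 were called lower, and these 3 passed the filter through their ND values alone. The 8 markers summed to 69.8 and 67.9 TPM in ND, as compared to 39.7 and 26.0 TPM in HFD, and Cfd, at 26.3 and 24.6 TPM in ND and at 0.9 and 0.3 TPM in HFD, had the largest part in that difference. The part of adipocyte RNA in the fall of Pla2g16 was not tested. The genes with the most similar profiles over the 4 samples were Cd81 at a distance of 0.0220, Arid5a at 0.0319 and Rab39 at 0.0371. Cd81, which encodes a tetraspanin found on many leukocytes, was at 858 and 869 TPM in ND and at 370 and 407 TPM in HFD.

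Pla2g4a encodes the calcium-dependent cytosolic enzyme that releases arachidonic acid in stimulated leukocytes. It was at 12.3 and 14.6 TPM in ND and at 14.9 and 17.0 TPM in HFD. The replicates of each diet differed about as much as the diets did, and the log2 fold change was 0.23 ± 0.13 (SE, limma adjusted p = 0.271) with a 95% interval of -0.15 to 0.61. It ranged from 0.12 without ND replicate 1 to 0.35 without ND replicate 2.

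Pla2g6 encodes the calcium-independent enzyme of phospholipid remodelling. It was at 1.5 and 1.4 TPM in ND and at 3.1 and 1.4 TPM in HFD, so the diets overlapped and HFD replicate 1 alone was high. The log2 fold change of 0.36 (limma adjusted p = 0.465) had a 95% interval of -0.58 to 1.29. Leaving out HFD replicate 1 gave -0.03 and leaving out HFD replicate 2 gave 0.74, which was called (limma adjusted p = 0.0328). The sum of the 6 spermatid markers was 3.25 times as high in HFD replicate 1 as in HFD replicate 2, and its part in the value of Pla2g6 was not tested.

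**Figure D3:**
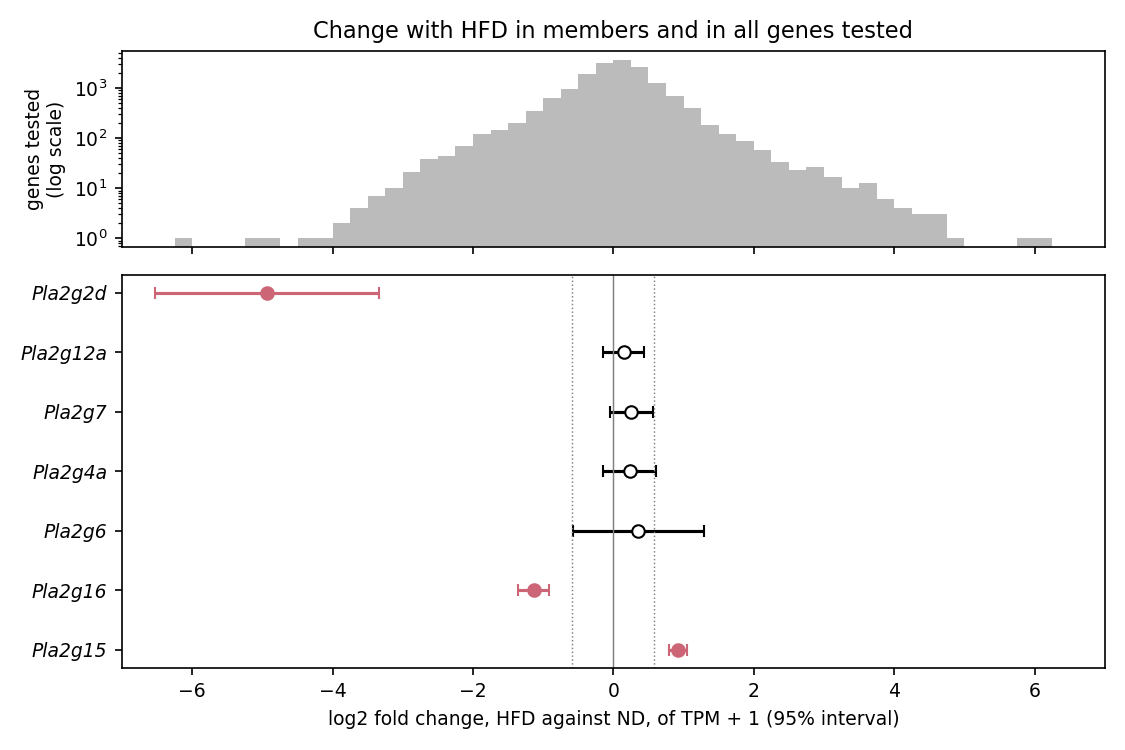
The lower panel gives the log2 fold change of TPM + 1, HFD against ND, with its 95% interval for the 7 members tested (filled, called; dotted lines, the 1.5-fold limit), and the upper panel the number of tested genes per bin on a log axis. Pla2g2d at -4.94 sits in the far left tail of all genes, while 4 members have intervals that include 0.

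The order of the members changed with the diet. In ND the order of the mean TPM was Pla2g2d, Pla2g7, Pla2g15, Pla2g16, Pla2g4a, Pla2g12a, Pla2g6 and Pla2g5, and no neighbours in that order overlapped. In HFD it was Pla2g15, Pla2g7, Pla2g4a, Pla2g16, Pla2g12a, Pla2g2d, Pla2g6 and Pla2g5. There the range of Pla2g2d, 2.3 to 7.6 TPM, overlapped those of its neighbours Pla2g12a and Pla2g6, and the other neighbours did not overlap. The ratio of Pla2g15 to Pla2g2d was 0.445 and 0.446 in ND and 18.1 and 60.3 in HFD. The ratio of Pla2g4a to Pla2g16 was 0.537 and 0.629 in ND and 1.57 and 1.63 in HFD, and that of Pla2g15 to Pla2g7 was 0.742 and 0.741 in ND and 1.28 and 1.09 in HFD.

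The summed TPM of the 8 members was 369 and 384 in ND and 287 and 303 in HFD. Secreted members made up 70.7% ± 0.140 of this sum in ND and 43.6% ± 1.64 in HFD (SD, n = 2 per diet). Their 4 genes summed to 261 and 271 TPM in ND and to 122 and 136 TPM in HFD, with 1 of 3 tested members called lower. The cytosolic members held 10.1% ± 0.182 in ND and 9.53% ± 0.0585 in HFD, with 1 of 3 called lower. The lysosomal member held 19.2% ± 0.0421 in ND and 46.9% ± 1.58 in HFD. Pla2g2d alone went from 43.2% ± 0.162 to 1.70% ± 1.34 of the sum. The secreted share in HFD rested on Pla2g7, which is secreted but is built unlike the small secreted enzymes. Without Pla2g7 the secreted share of the remaining sum was 60.4% in ND and 6.45% in HFD. These shares describe the 4 samples and carry no test.

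**Figure D4:**
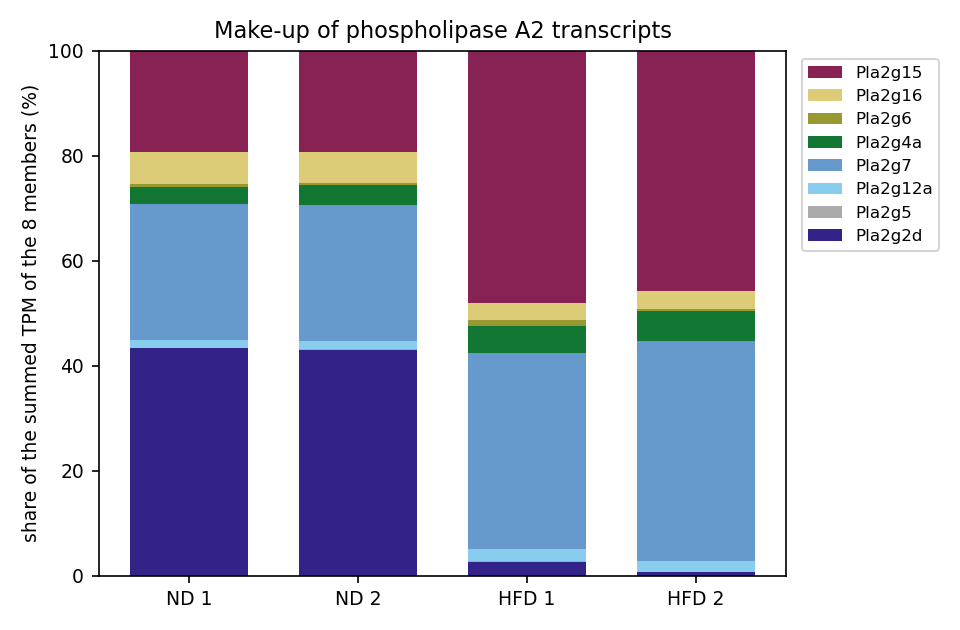
Share of the summed TPM of the 8 members held by each member, in percent, with 1 bar per sample. Pla2g2d fills 43.3% and 43.1% of the ND bars and 2.65% and 0.758% of the HFD bars, and Pla2g15 goes from 19.3% and 19.2% to 48.0% and 45.7%.

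The sequences before the start sites of the 3 members that were called are given since these genes differ most between the diets. They are the 250 bases upstream of the start in RefSeq on GRCm38.p6, all on the plus strand, 5′ to 3′, at chr4:138775485-138775734 for Pla2g2d, chr19:7557209-7557458 for Pla2g16 and chr8:106150104-106150353 for Pla2g15. All 8 members had a promoter of 300 bases in the RefSeq table, which runs on to 50 bases after the start. Both strands of those 300 bases were searched for CACGTG, the core of the element bound by lysosomal gene regulators, and for TGANTCA. The latter is a loose form of the AP-1 element with any base allowed at its centre, where the match marked below holds a T. CACGTG occurs in 7.15% and TGANTCA in 7.81% of 32851 promoters in the table, and in at least 1 promoter of 8.09% and 8.97% of its 27025 genes. The capitals mark the match to TGANTCA in Pla2g16, which begins at position -215 from the start and at -241 from a further start of that gene. No other member held either run of letters in this window, and a match describes the letters and not a bound site.
Pla2g2d: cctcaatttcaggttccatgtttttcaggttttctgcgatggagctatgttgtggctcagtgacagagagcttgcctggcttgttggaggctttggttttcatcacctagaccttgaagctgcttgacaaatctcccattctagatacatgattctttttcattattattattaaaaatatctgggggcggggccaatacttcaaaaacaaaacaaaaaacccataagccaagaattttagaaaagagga
Pla2g16: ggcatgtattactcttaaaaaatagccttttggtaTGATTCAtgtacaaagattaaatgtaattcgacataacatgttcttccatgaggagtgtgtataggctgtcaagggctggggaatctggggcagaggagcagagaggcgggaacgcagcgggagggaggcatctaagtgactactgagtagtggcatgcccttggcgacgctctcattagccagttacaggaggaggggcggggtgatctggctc
Pla2g15: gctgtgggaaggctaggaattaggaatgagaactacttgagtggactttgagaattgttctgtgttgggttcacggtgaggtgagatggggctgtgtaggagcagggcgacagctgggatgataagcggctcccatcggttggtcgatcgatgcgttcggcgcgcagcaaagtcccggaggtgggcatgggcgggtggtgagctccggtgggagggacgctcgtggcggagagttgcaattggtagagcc

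The relatives of the members were mostly low. Of 8 other secreted phospholipase A2 genes, 3 were tested, of which 1 was called higher and 2 were not called. Pla2g2e, a gene of the chromosome 4 cluster, was at 0.2 and 0.5 TPM in ND and at 1.4 TPM in both HFD samples (log2 fold change 0.84, limma adjusted p = 0.0408), and it passed the filter through its HFD values alone. Pla2g2c was at 12.7 TPM in HFD replicate 1 and at 3.7 to 4.6 TPM in the other samples, and Pla2g10 at 3.4 TPM there and at 0.4 to 1.2 TPM elsewhere. Both were thus high in the library with the high spermatid markers. Their log2 fold changes were 0.56 and 0.24 over all samples, and -0.21 and -0.58 without HFD replicate 1. Pla2g2a and Pla2g2f were listed at 0 in all samples. The cytosolic relatives had 1 of 5 genes tested, Pla2g4b at 3.1 to 3.8 TPM, which was not called.

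No relative of Pla2g16 was called. Hrasls5, its neighbour on chromosome 19, was at 70.0 and 68.4 TPM in ND and at 219 and 53.9 TPM in HFD, high in HFD replicate 1 alone. The log2 fold change of Hrasls5 was 0.65 over all samples and -0.35 without HFD replicate 1. Neither Hrasls5 nor Hrasls was called by limma, and 0 of the 2 had an unadjusted p under 0.05. Of 7 patatin-like phospholipases, 4 were tested and 0 were called, though 2 had an unadjusted p under 0.05 in limma. Pnpla2, the adipose triglyceride lipase, was at 41.7 TPM in both ND samples and at 66.5 and 59.4 TPM in HFD, with a log2 fold change of 0.58 just under the fold limit (limma adjusted p = 0.0208).

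Among 4 genes of phospholipase partners, Anxa1 was called higher. Anxa1 encodes annexin A1, a phospholipid-binding protein first described as an inhibitor of phospholipase A2. It was at 605 and 641 TPM in ND and at 2812 and 2830 TPM in HFD (log2 fold change 2.18 ± 0.04, limma adjusted p = 0.00378). Pla2r1, Plaa and Prdx6 were not called. The receptor for PAF, the substrate of Pla2g7, was encoded by Ptafr at 505 and 522 TPM in ND and at 349 and 331 TPM in HFD, and it fell by 0.59 on the log2 scale (limma adjusted p = 0.00932). It was 1 of 2 genes called lower among 6 of PAF handling, together with Pafah1b3, and 4 were not called. Both lay just over the fold limit, at -0.594 for Ptafr and -0.587 for Pafah1b3. Ptafr was at -0.557 without HFD replicate 2 and Pafah1b3 at -0.571 without HFD replicate 1, both under the limit in size. Each stayed over it with the other HFD replicate left out.

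The lysophospholipid products are handled by genes that moved in both directions. Of 9 genes of reacylation, 8 were tested, with 1 higher (Lpcat3), 2 lower (Lpcat4 and Mboat1) and 5 not called, and the median log2 fold change was -0.04. Of 9 genes of lysophospholipid breakdown, 2 were called higher (Gdpd1 and Abhd12), 1 lower (Abhd6) and 6 were not called, with a median of 0.01. Abhd12, a lysophosphatidylserine lipase, was at 123 and 126 TPM in ND and at 245 and 240 TPM in HFD (log2 fold change 0.96 ± 0.04, limma adjusted p = 0.00477). Of 11 lysophospholipid receptors, 9 were tested, with 3 called lower (Lpar1, Gpr174 and Gpr132), 6 not called and 0 called higher by limma, and 0 were higher at an unadjusted p under 0.05. Gpr174 passed the filter through its ND values alone, and without it 2 of 8 were called lower. The median log2 fold change was -0.86 over the 9 and -0.61 without Gpr174, as compared to 0.06 over all tested genes. P2ry10 and Gpr174 are known from lymphocytes, and the sums of T cell and B cell markers in HFD were 0.172 and 0.219 of their ND means. Their part in the values of the receptors was not tested. Gpr132, a receptor of macrophages for lysophospholipids and oxidized fatty acids, was at 135 and 133 TPM in ND and at 67.0 and 80.8 TPM in HFD.

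Downstream of arachidonic acid, 14 of 15 genes of eicosanoid synthesis were tested, with 2 called higher, 5 lower and 7 not called, and a median log2 fold change of -0.10. Of the leukotriene genes, Alox5, Alox5ap and Ltc4s were called lower and Lta4h was not called, with a log2 fold change of -0.23. Alox15 and the cyclooxygenase gene Ptgs1 were the other genes called lower, and Ptgs1 was at 15.6 and 16.2 TPM in ND and at 3.1 and 2.7 TPM in HFD. Ltc4s, which encodes leukotriene C4 synthase, was at 159 and 153 TPM in ND and at 20.4 and 16.7 TPM in HFD, and Alox5 was at 244 TPM in both ND samples and at 47.9 and 37.8 TPM in HFD. The genes called higher were Ptgs2, the inducible cyclooxygenase, and Hpgds. Ptgs2 was at 145 and 161 TPM in ND and at 225 and 291 TPM in HFD. Its call was narrow (log2 fold change 0.74, limma adjusted p = 0.0496). The change was 0.57 with quantile normalization and 0.56 without HFD replicate 2, both under the fold limit. Hpgds, a prostaglandin D synthase, rose from 51.1 and 53.1 TPM to 161 and 147 TPM (log2 fold change 1.54 ± 0.07, limma adjusted p = 0.00503). Markers of mast cells, which are rich in several of these enzymes, were all called lower (7 of 7), with sums of 1601 and 1621 TPM in ND, as compared to 392 and 505 TPM in HFD. The sums of neutrophil, monocyte and eosinophil markers were lower too, at 0.356, 0.427 and 0.519 of their ND means, while that of lipid-associated macrophage markers was higher. The part of these cell types in these values was not tested. Pla2g4a, the enzyme at the head of this route, had no call in either direction.

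**Figure D5:**
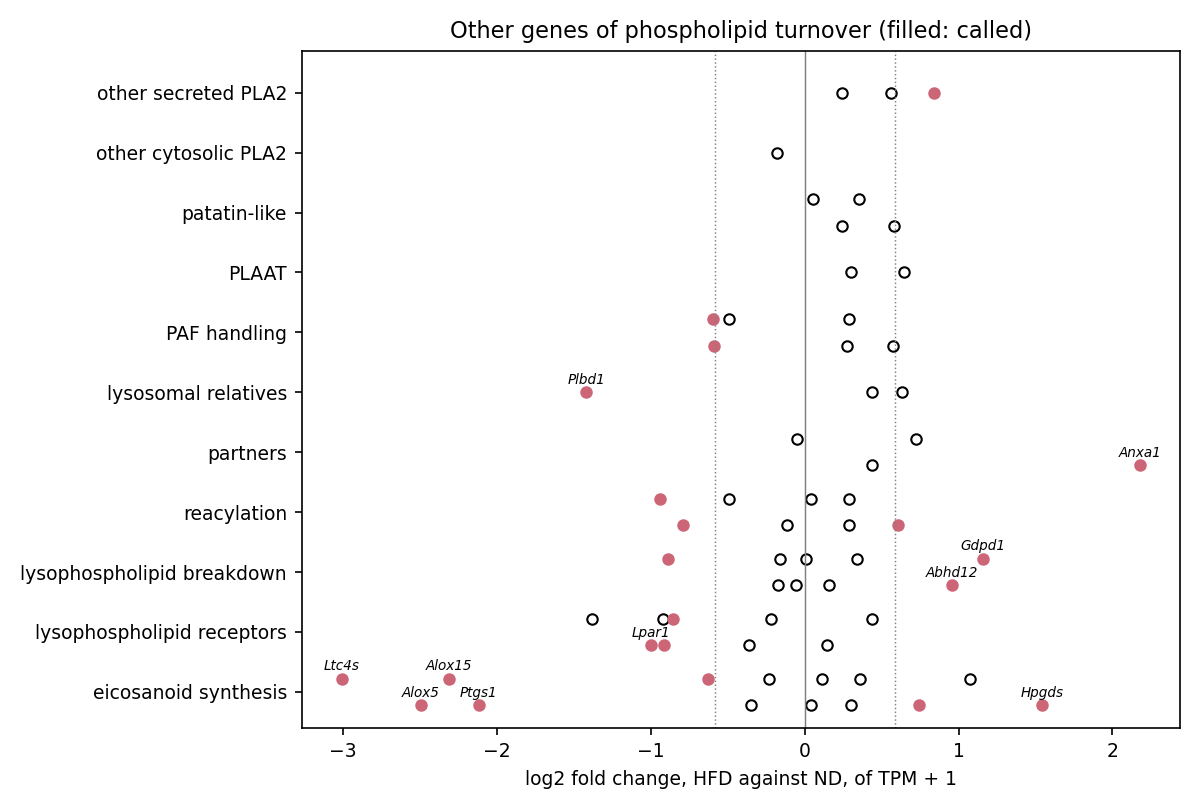
Log2 fold change of TPM + 1, HFD against ND, of the tested genes in 11 lists of phospholipid turnover, with filled points for called genes and dotted lines at the 1.5-fold limit. Lysophospholipid receptors run from -1.38 to 0.44, and eicosanoid synthesis runs from -3.01 for Ltc4s to 1.54 for Hpgds.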

How the data were processed

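RNA-seq libraries of CD45+ cells from eWAT (stranded mRNA kit) were compared between ND and HFD, with 2 samples per diet grouped by their labels. The authors trimmed reads with Trim Galore 0.4.2 and cutadapt 1.9.1, aligned them to mm10 with STAR 2.6.1e, removed duplicates with Sambamba, counted with featureCounts 1.6.2 and deposited TPM, printed to 1 decimal, per the submitters' processing notes and the paper's methods. The annotation and strand setting are not given in the sources used here. TPM are relative amounts, so a rise of some transcripts lowers the others.

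Values of log2(TPM + 1) were fitted with limma 3.58.1 in R 4.3.3 (eBayes, variance modelled against mean level) over the 16849 genes with at least 1 TPM in at least 2 samples, with Benjamini-Hochberg adjustment over all of them. No count model was used, since TPM are not counts. The fit was tested on simulated data. The simulated noise was smaller than the spread of Pla2g2d and Pla2g6 within diets, and no simulated library stood apart. That test thus does not cover such cases. Depth came from the steps of 216 to 257 microRNA genes per sample (100% whole within rounding) and exon lengths of GENCODE vM21, and is approximate. The members, the lists of related genes and the marker lists were chosen with earlier results of these data known. Named genes were the 8 members, the called or largest genes of each list, and the 3 nearest profiles of members with an absolute log2 fold change of at least 1. Genes named beside them to give a value of 0 or of a marker were added after their values were seen. Protein sequences were not used here. Alternatives were other pseudocounts, filters, scalings and fold limits, no variance trend, a replicate block, the secreted share without Pla2g7, and each sample left out in turn.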

Additional observations from a re-analysis of the deposited data

How the results depend on the processing

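Refits that changed only the filter, the variance trend or the replicate block keep the log2 fold change of any gene, so they could not change a direction. Of 90 refits of single members under alternative settings, these included, 89 kept their direction. The exception was Pla2g6, at -0.029 without HFD replicate 1, which was called at 0.74 without HFD replicate 2. The number of members called higher, 1, became 0 with a 2-fold limit and ranged from 0 to 2 with single samples left out. The number called lower, 2, ranged from 0 to 2 with single samples left out. In those fits the diet left with 1 sample is assumed to vary like the other. The labels name no batch shared by samples of the same replicate number. Over the tested genes, the deviations of ND replicate 1 and HFD replicate 1 from their diet means correlated at -0.02. With 2 samples per diet, this value cannot exclude a shared batch. With a replicate block the number of members called lower was 0, since Pla2g2d and Pla2g16 both had a limma adjusted p of 0.0520, while Pla2g15 kept its call at 0.0460, and 812 genes were called in all as compared to 3097. Over the alternatives that kept all 4 samples, the adjusted p of Pla2g2d ran from 0.00521 to 0.0520. A pseudocount of 5 gave 2015 calls over all genes. The secreted share without Pla2g7 was 60.4% in ND and 6.45% in HFD. With single samples left out it ran from 70.6% to 70.8% in ND and from 42.4% to 44.8% in HFD with Pla2g7 kept. All 21 called genes of the related lists kept their direction in every setting in which they were fitted, but 8 of the 21 were called with a replicate block, 14 with a pseudocount of 5, and 0 without ND replicate 1 or ND replicate 2. Depth limits Pla2g5, which rests on under 10 reads per sample.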
